A study of Caenorhabditis elegans with 4 samples.

Results

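The Pol II peaks of chromosome II were taken from a peak list of Caenorhabditis elegans larvae as all rows placed on that chromosome, which gave 713 of 5942 listed peaks (12.0%). The list came from ChIP-seq of RNA polymerase II in hermaphrodites at the third larval stage (L3), with 2 Pol II libraries and 2 libraries of input DNA, chromatin that was not precipitated. All 4 libraries were made from strain OP26, which carries the mutation unc-119(ed3) on chromosome III and the transgene wgIs26. The transgene holds both unc-119(+), the rescuing copy, and the tagged Hox gene mab-5::TY1::EGFP::3xFLAG. Mutation and transgene were thus common to the precipitated and the input chromatin, and no worms without them were compared. The worms were grown at 20 degrees Celsius and fixed with 2% formaldehyde, and the Pol II antibody was the mouse monoclonal 8WG16, per the sample descriptions; the protocol text that the labels share speaks of anti-GFP serum and embryos instead. Whole animals were used, so the peaks pool all larval tissues, and the line was made by bombardment and outcrossed.

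RNA polymerase II transcribes all protein-coding genes, and 8WG16 binds the repeats in the tail of its largest subunit, the product of ama-1. A peak is a stretch in which precipitated reads exceeded input reads. By itself it does not tell whether the polymerase was paused near a promoter or elongating through a gene. On the autosomes of the worm, genes are packed most densely in the middle, while the arms are richer in repeats, recombine more and lie closer to the nuclear envelope. The left arm of chromosome II is known for large families of tandemly repeated genes, among them F-box and MATH-domain genes, which encode adaptors of ubiquitin ligases. No gene annotation of the build of the list, WormBase WS180, was used, so peaks are given by position only and were not assigned to genes.

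A single list was made from the 4 libraries. No value below therefore has an error between replicates, the depth is unknown, and differences between regions or chromosomes are descriptions without a test, with the spread over windows where it applies. The q-value (a p-value corrected for testing many regions) is the authors' value for each peak. The product of q and rank was equal (to within 1e-11) for 686 pairs of neighbours in the list when its first peak was given rank 96, and for 0 pairs at any other of 300 first ranks tried. On that reading 95 regions of higher rank were not analysed here, and "strongest" below means the smallest q among listed peaks.

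Chromosome II lay in the middle of the 5 chromosomes compared here. It carried 46.7 peaks per Mb over the 15.3 Mb up to its last peak, against 65.4 on III, 52.2 on IV, 30.4 on V and 34.2 on X. The peaks covered 1.18 Mb of chromosome II, or 7.75%, against 9.15% of III, 8.38% of IV, 6.11% of V and 6.55% of X. Relative to the mean of the other 4, chromosome II had 1.02 times the peaks and 1.03 times the covered bases per Mb. This ratio turned below 1 when either V or X was left out (0.92 and 0.95) and was 1.20 without III, so the place of chromosome II depended on which chromosomes it was set against.

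Along the chromosome the peaks were spread unevenly, with a sparse left arm, a dense centre and an intermediate right arm. Counting from base 1 to the end of the last peak, the first 25% of bases were taken as the left arm, the middle 50% as the centre and the final 25% as the right arm, by peak midpoint. The left arm of 3.82 Mb held 43 peaks, the centre of 7.64 Mb held 505 and the right arm held 165, which is 6.03%, 70.8% and 23.1% of the peaks of the chromosome (95% exact binomial intervals 4.40% to 8.04%, 67.3% to 74.1% and 20.1% to 26.4%, for counting error only). The density was 11.3 peaks per Mb in the left arm, 66.1 in the centre and 43.2 in the right arm. Covered bases were less uneven, at 36.4 kb per Mb in the left arm, 95.2 kb in the centre and 83.3 kb in the right arm.

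In fixed windows of 500 kb from the first base, the 15 central windows held 34.1 ± 11.8 peaks and the 15 arm windows 12.3 ± 8.87 (mean and SD over windows), a ratio of 2.78. Neighbouring windows are not independent, and the SD is the spread along the chromosome. The ratio for covered bases was 1.63, from 47.3 ± 11.8 kb in central windows and 29.04 ± 18.2 kb in arm windows. The 8 windows of the left arm held between 1 and 12 peaks, with a median of 4.5. The 7 full windows of the right arm held between 13 and 28, with a median of 18. The 2 arms thus did not overlap in peaks per window. In peaks, the left arm also lay below all but 1 of the central windows, which ranged from 10 to 53 peaks with a median of 34. In covered bases the 2 arms did overlap, with 0.448 to 43.3 kb per window in the left and 16.8 to 72.6 kb in the right arm.

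**Figure D1:**
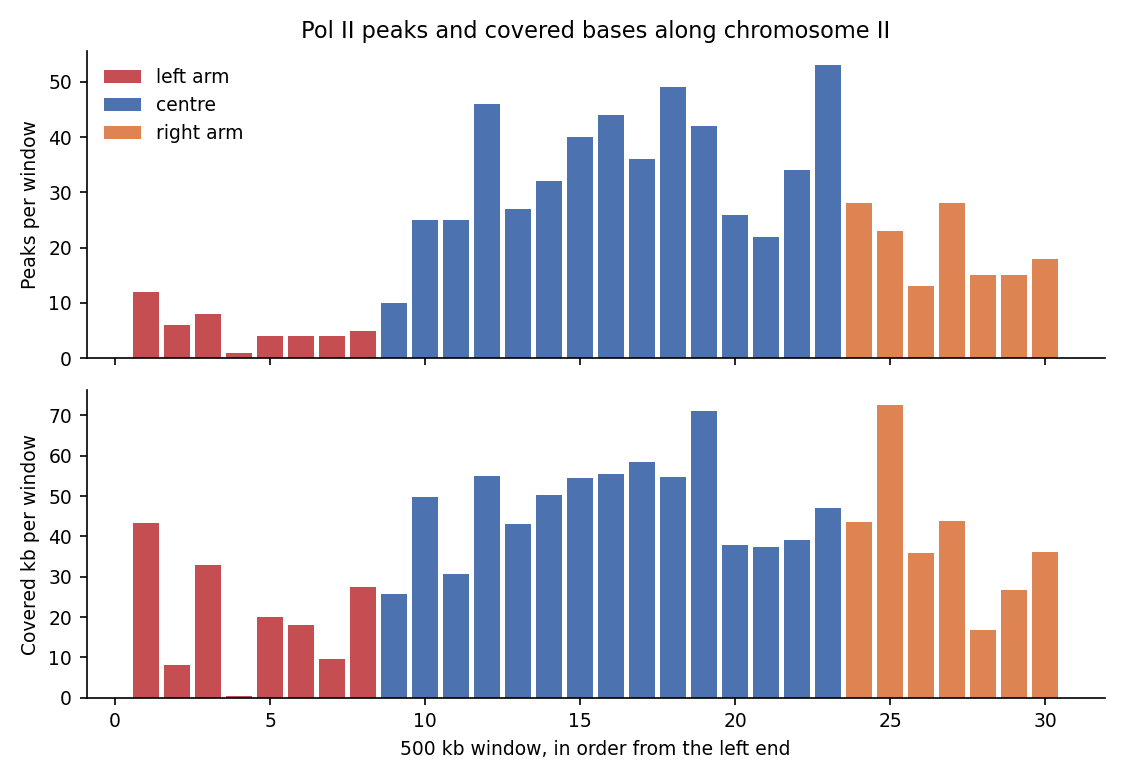
Pol II peaks (top) and kb covered by peaks (bottom) in the 30 full 500 kb windows of chromosome II, in order from the left end, with bars coloured by region. The 8 windows of the left arm hold 1 to 12 peaks, while the window with most covered bases (72.6 kb) lies in the right arm.

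The step from sparse to dense lay beyond the edge of the left arm as defined here. From the first base, the first 9 windows held 12, 6, 8, 1, 4, 4, 4, 5 and 10 peaks. The next 3 windows held 25, 25 and 46. The 2500 kb from 1500001 to 4000000, a stretch chosen after its values were seen, held 18 peaks, and the 1000 kb from 4500001 to 5500000 held 50. The left arm was not emptiest at its tip: the first 500 kb carried its largest window count, 12 peaks, and 43.3 kb of covered bases, which is within the range of the central windows (25.9 to 71.04 kb).

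Peak number and covered bases parted in single windows. The window with most peaks, from 11000001 to 11500000 in the centre, held 53 peaks that covered 46.96 kb, or 0.89 kb per peak. The window with most covered bases, from 12000001 to 12500000 in the right arm, held 23 peaks that covered 72.6 kb, or 3.15 kb per peak. The emptiest window, from 1500001 to 2000000 in the left arm, held a single peak of 448 bp. Across the 30 windows, which share the same libraries, Spearman's rho between peak number and covered bases was 0.84.

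The imbalance between the arms differed in size and direction among the chromosomes. The left arm had 11.3 and the right arm 43.2 peaks per Mb on II, a ratio of 0.26, which was 0.14 among peaks with a q of 1e-20 or less. On III the left arm had 45.3 and the right arm 53.1, on IV 52.7 and 25.9, on V 12.5 and 13.04, and on X 23.3 and 40.5. Chromosome IV thus leaned the other way, and V was sparse in both arms to about the level of the left arm of II. The left arm of II had the lowest peak density of the 15 regions, and in covered bases it lay above both arms of V (28.2 and 34.8 kb per Mb). The density of its centre was close to that of IV (65.1 peaks per Mb), below III (81.6) and above V (47.95) and X (36.5).

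**Figure D2:**
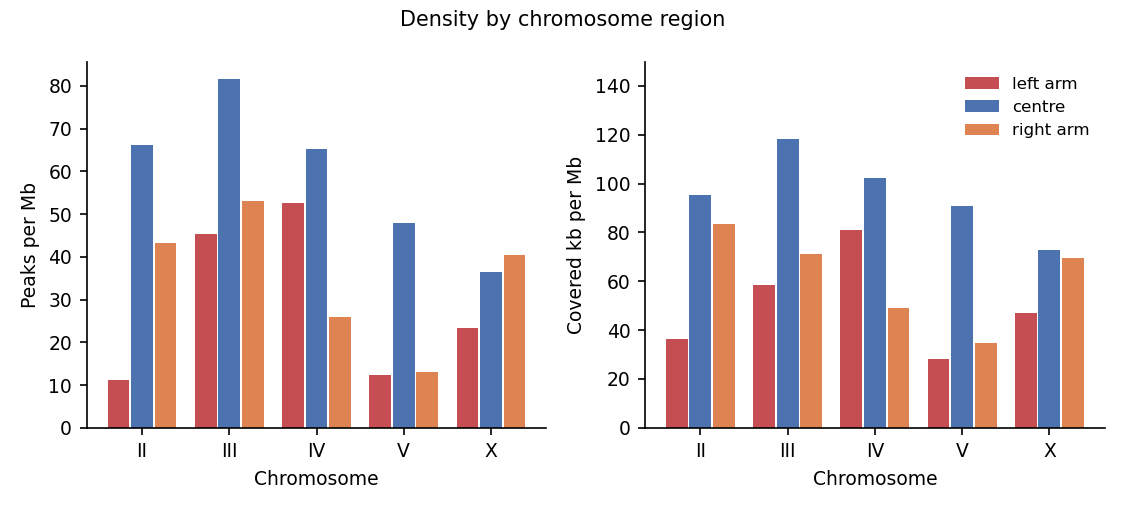
Peaks per Mb (left) and covered kb per Mb (right) in the left arm, centre and right arm of chromosomes II, III, IV, V and X, each bar from the peaks of 1 region of the pooled list. The left arm of II (11.3 peaks per Mb) is close to the arms of V (12.5 and 13.04), and its covered bases (36.4 kb per Mb) are above theirs.

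Most of the left arm consisted of long stretches without a listed peak. A stretch of 100 kb or more between neighbouring peaks was counted as long. The left arm had 11 such stretches, which added up to 2.69 Mb or 70.5% of its length, whereas the centre had 5 (8.05% of its length) and the right arm 5 (16.9%). The longest ran for 657 kb from 1535495 to 2192026. It was followed in length by 340 kb from 756538 to 1096809, 279 kb from 2565295 to 2844412, 274 kb from 3538844 to 3812478 and 229 kb from 3088315 to 3317536. All 6 stretches of 200 kb or more on chromosome II were in its left arm.

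The stretches outside the left arm were shorter. The longest of the right arm was 151 kb, from 15043158 to 15193736, and the longest of the centre was 138 kb, from 3813788 to 3952227, which spans the edge of the left arm at 3818482 and was assigned by its midpoint. Long stretches took a similar share of both arms of V, at 72.3% of the left and 70.3% of the right arm. They took 50.2% of the right arm of IV, 35.1% of the left arm of X and 20.9% of the left arm of III. Chromosome II had 21 long stretches in all, V had 41, IV and X had 22 each and III had 8. In bins of 100 kb, 16 of 38 bins in the left arm of II held no peak midpoint, as did 0 of 77 in the centre and 3 of 37 in the right arm.

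**Figure D3:**
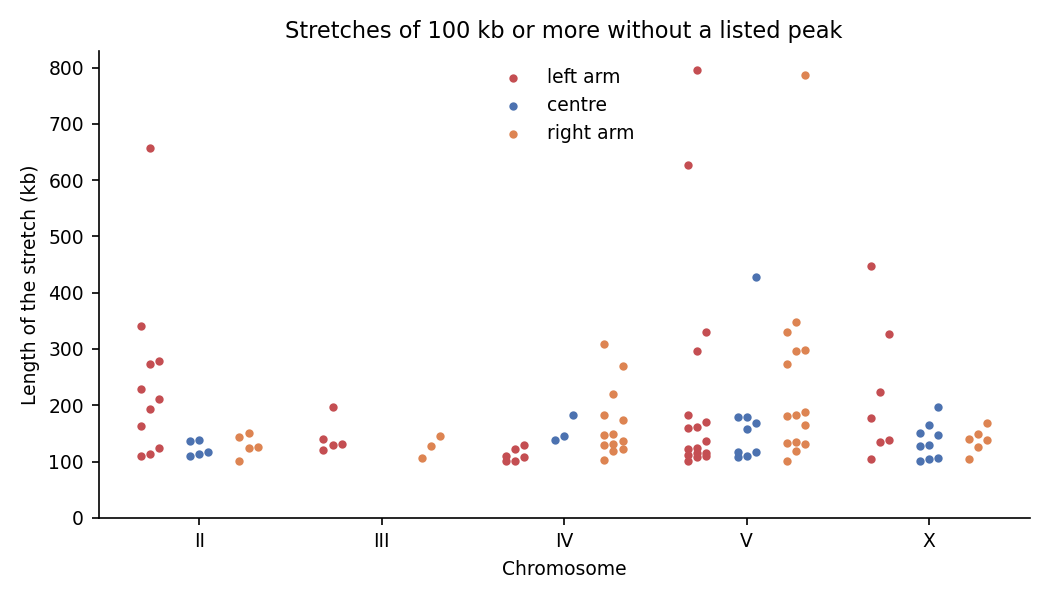
Length in kb of every stretch of 100 kb or more between neighbouring listed peaks, by chromosome and region; each point is 1 stretch. On II, all 6 stretches of 200 kb or more are in the left arm, and the longest (657 kb) is exceeded among these 5 chromosomes only by 2 on V (795 and 786 kb).

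Peaks in the left arm stood in 12 groups separated by these stretches. The largest group had 13 peaks over 442 kb, from 158036 to 599977, and the next had 8 peaks over 227 kb, from 1096810 to 1324175. They held 47.2 and 32.8 of the 139 kb covered in the arm. Each of 3 groups consisted of a single peak, at 1535047 to 1535494, 3317537 to 3317718 and 3812479 to 3813787. Of the 20 peaks beside the long stretches of the left arm, 8 had a q above 0.001, against 1 of the other 23 peaks of the arm and 121 of all 713 peaks on II (16.97%), with 17.1% of the whole list. Both sets held 3 peaks with a q of 1e-20 or less, and their median widths were 1304 and 1343 bp. The peaks on either side of the longest stretch had a q of 0.0005 (448 bp) and 1.86e-09 (1631 bp). With only peaks of q at most 1e-05 kept, the arm had 10 long stretches, but 1 of them had the same start and end as before, since dropping weak peaks joined some stretches and opened others. The longest then ran for 944 kb, from 1247660 to 2192026.

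Peaks were wider in the left arm, where they were fewest. The median width was 1312 bp in the left arm, 683 bp in the centre and 903 bp in the right arm, and the upper quartiles were 3810, 1520 and 2411 bp. The left arm's median was 1.92 times that of the centre, and a 95% binomial interval for the left median puts this ratio between 1.09 and 3.19. Among peaks with a q of at most 1e-05 it was 3.34, outside that interval. The interval was computed for all peaks of the arm, and this smaller set was given none of its own. Broad peaks of 5 kb or more made up 10 of 43 peaks in the left arm (23.3%), 31 of 505 in the centre (6.14%) and 16 of 165 in the right arm (9.70%). They were 57 of the 713 peaks of chromosome II (7.99%), against 5.54% of the whole list, 6.44% on III, 6.91% on IV, 10.9% on V and 9.09% on X. All of the compared chromosomes thus lay above the whole list, which also counts peaks outside them, and II lay in the middle of their range. Per Mb, broad peaks were nevertheless fewest in the left arm, at 2.62 against 4.06 in the centre and 4.19 in the right arm. At the other end of the width range, 32 peaks of chromosome II (4.49%) were 50 bp wide or less. They were 2 in the left arm, 22 in the centre and 8 in the right arm. The share was 6.08% in the whole list, 5.22% on III, 5.59% on IV, 5.53% on V and 4.96% on X. In narrow peaks, all of the compared chromosomes thus lay below the whole list. In the order II, III, IV, V and X, these chromosomes held 713, 901, 912, 633 and 605 of its 5942 peaks. Shares of broad and narrow peaks outside them were not computed.

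Broad peaks held most of the bases covered in the left arm. They made up 73.5% of its covered bases, against 32.9% in the centre and 40.6% in the right arm of II. The share was 44.1% in the left and 59.3% in the right arm of V, the chromosome with the most similar arms. Peak widths on V also had higher medians in the arms (1379 and 1120 bp) than in the centre (931 bp), whereas on III the 3 regions lay between 624 and 641 bp and on IV between 729 and 767 bp. On X the medians were 995 bp in the left arm, 1009 bp in the centre and 923 bp in the right arm.

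The 5 widest peaks of chromosome II all lay in the left arm or just past its edge. The widest spanned 20810 bp from 3952228 to 3973037 (q = 1.05e-31), the first peak of the centre. In the left arm, peaks of 16265 bp (2437818 to 2454082, q = 1.13e-27), 15855 bp (2844413 to 2860267, q = 1.88e-07), 14960 bp (1232700 to 1247659, q = 1.39e-251) and 13836 bp (158036 to 171871, q = 1.21e-113) followed. The q-values of these 4 peaks thus ran from close to the median of the chromosome to among its 10 smallest. The last peak before the edge, at 3812479 to 3813787, was 1309 bp wide (q = 3.43e-05).

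Within classes of width, peaks in the left arm of II had larger median q-values than those of its centre and right arm. The class of broad peaks has no upper limit, so widths within it differ. Among broad peaks the median −log10 q was 21.8 in the left arm (10 peaks), 66.99 in the centre (31) and 37.3 in the right arm (16). Among peaks from 2000 to under 5000 bp it was 6.68 in the left arm (5 peaks), 27.6 in the centre (73) and 22.4 in the right arm (35). The left arm was also lowest among peaks from 1000 to under 2000 bp, at 4.91 (11 peaks) against 10.9 in the centre (78) and 11.5 in the right arm (26). These left arm medians rest on few peaks. The right arm of IV was also below its centre, at 34.2 against 75.3 among broad peaks and 12.6 against 23.1 from 2000 to under 5000 bp. In the latter class, both arms of V were below its centre (15.7 and 12.8 against 20.6). The same held for both arms of III (15.5 and 24.2 against 30.6) and the right arm of X (10.2 against 11.6). The left arms of IV (30.99 against 23.1) and X (12.7 against 11.6) were above. Among broad peaks, the left arms of IV (37.8 against 75.3) and V (45.6 against 48.9) and the right arm of X (25.7 against 40.1) were below. The right arm of V (54.5) was above its centre (48.9) in that class. So were both arms of III (102 and 96.7 against 91.2) and the left arm of X (58.4 against 40.1). Over all widths on II, the median −log10 q was 5.48 in the left arm, 6.80 in the centre and 6.51 in the right arm. Width and −log10 q were related with a Spearman's rho of 0.74 over the 43 peaks of the left arm, 0.67 over the centre and 0.58 over the right arm, as a description across peaks of the same libraries.

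**Figure D4:**
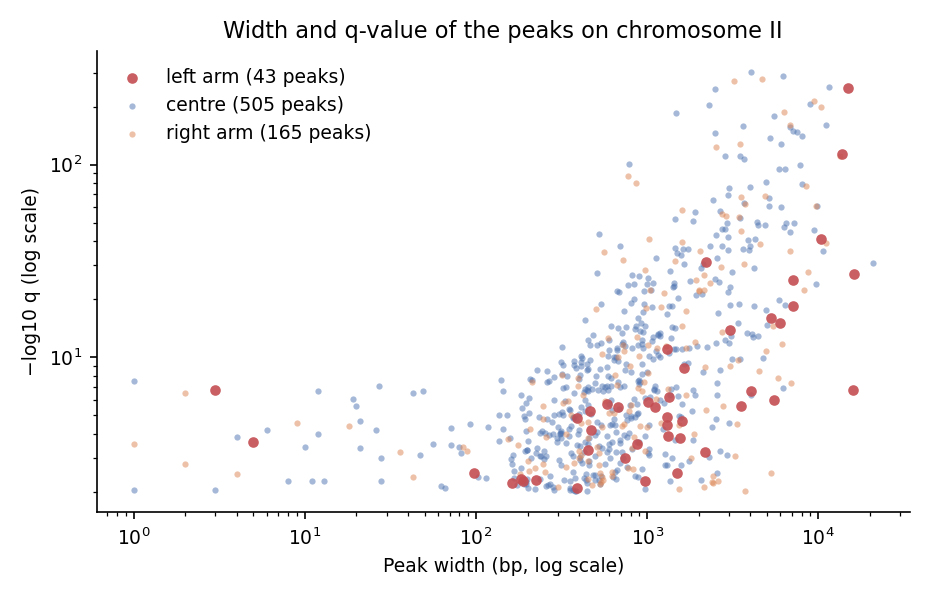
Width (bp, log axis) and −log10 q (log axis) of the 713 peaks on chromosome II; each point is 1 peak, coloured by region. A q of 1e-20 or less is reached by 6 of the 43 left arm peaks (13.95%) and by 152 of all 713 (21.3%). The 6 include the broad peaks of 14960 and 13836 bp.

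Strong peaks were found in all 3 regions. A q of 1e-20 or less was reached by 152 peaks of chromosome II (21.3%), against 21.8% of the whole list, 19.5% on III, 20.2% on IV, 24.96% on V and 17.4% on X. By region these were 6 of 43 peaks in the left arm (13.95%), 103 of 505 in the centre (20.4%) and 43 of 165 in the right arm (26.1%). Of the first 100 peaks of the list, 14 were on II, which held 12.0% of all listed peaks. There were 14 on III (15.2% of the list), 18 on IV (15.3%), 17 on V (10.7%) and 3 on X (10.2%). The others lay outside these chromosomes.

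The strongest peak of chromosome II, from 11268300 to 11272346 in the centre, had a q of 3.96e-304 and a width of 4047 bp. The second, at 7391860 to 7398055 (q = 1.26e-289), lay in the same 500 kb window as 2 others of the strongest 10 and beside the window of another. These were a peak of 2299 bp from 7166636 (q = 2.73e-204), a peak of 11530 bp from 7341315 (q = 2.91e-254) and a peak of 2478 bp from 7543684 (q = 2.89e-247). The centre also held the peak at 10496367 to 10505322 (q = 2.59e-207). The right arm held 3 of the 10. Its strongest spanned 15225681 to 15230361 (q = 2.14e-280), with others at 13459636 to 13462862 (q = 5.66e-272) and at 14567820 to 14577282 (q = 6.98e-215). The left arm held 1, the peak of 14960 bp named above. Widths of these 10 ranged from 2299 to 14960 bp.

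The right tip of the chromosome was dense. The last 100 kb before the end of the last peak, a stretch chosen after its values were seen, held 14 peaks that covered 36.8 kb, and 7 of them had a q of 1e-20 or less. They included the run with most peaks at most 1 kb apart on the chromosome, 8 peaks over 17766 bp from 15193737 to 15211502, with widths of 413 to 4872 bp and gaps of 208 to 976 bp. A further run of 3 peaks, from 15215338 to 15230361, contained the strongest peak of the right arm. The last run of 3 peaks, from 15264762 to 15273928, ended with the last listed peak (15273287 to 15273928, q = 7.97e-06). The stretch directly before this dense tip was the longest peak-free stretch of the right arm. At the left tip, the first peak lay at 23972 to 25283 (q = 8.61e-12), and the first long stretch began at 47875.

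Neighbouring peaks stood closer than uniform placement gives. On chromosome II, 213 of 713 peaks (29.9%, 95% exact binomial interval 26.5% to 33.4%) had another peak within 1 kb. If the same peaks were placed uniformly over chromosome II with gaps of at least 200 bp, a formula gives 7.84%, so that the observed share was 3.81 times the expected one. With the peak density of each 500 kb window kept, the expected share was 11.1% and the ratio 2.70. The ratios to uniform placement were 3.02 on III, 3.78 on IV, 4.15 on V and 4.13 on X, and those with window density kept were 2.66, 3.09, 2.60 and 3.54. The chromosomes were not tested against each other.

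Close neighbours were found in every region of II. Within 1 kb of another peak were 5 of 43 peaks in the left arm (11.6%), 148 of 505 in the centre (29.3%) and 60 of 165 in the right arm (36.4%). Uniform placement within each region gives 1.81%, 11.2% and 7.29%. The right arm therefore had a larger share of close neighbours than the centre at a lower density. The runs of 8, 3 and 3 peaks in the last 100 kb, described above, are among its 60 peaks. The share without that tip was not computed, and the regional shares have no interval. The median distance to the nearer neighbour in the right arm was 2114 bp, close to the 2300 bp of the centre. That of the left arm was 15699 bp.

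Relative to uniform placement over all of chromosome II, the excess lay in short gaps and in the long stretches. Of the 712 gaps between neighbouring peaks, 59 were between 200 and 399 bp, where uniform placement gives 7.24, and 32 were between 400 and 599 bp, where it gives 7.17. Gaps of 2 to 10 kb were close to expectation, with 88 against 92.4 between 2 and 5 kb and 115 against 126 between 5 and 10 kb. Gaps of 10 to 20 kb (123 against 173), 20 to 50 kb (138 against 203) and 50 to 100 kb (40 against 51.3) were fewer. Stretches of 100 kb or more were 21 against 4.25, and 11 of the 21 lay in the left arm. This expectation spreads the peaks evenly over the chromosome and takes no account of the low density of that arm. The number expected at the arm's own density was not computed, so an excess beyond that density was not tested. No gap was shorter than 200 bp in the whole list, and pieces of a single occupied stretch that were listed separately would also give short gaps, which was not tested.

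**Figure D5:**
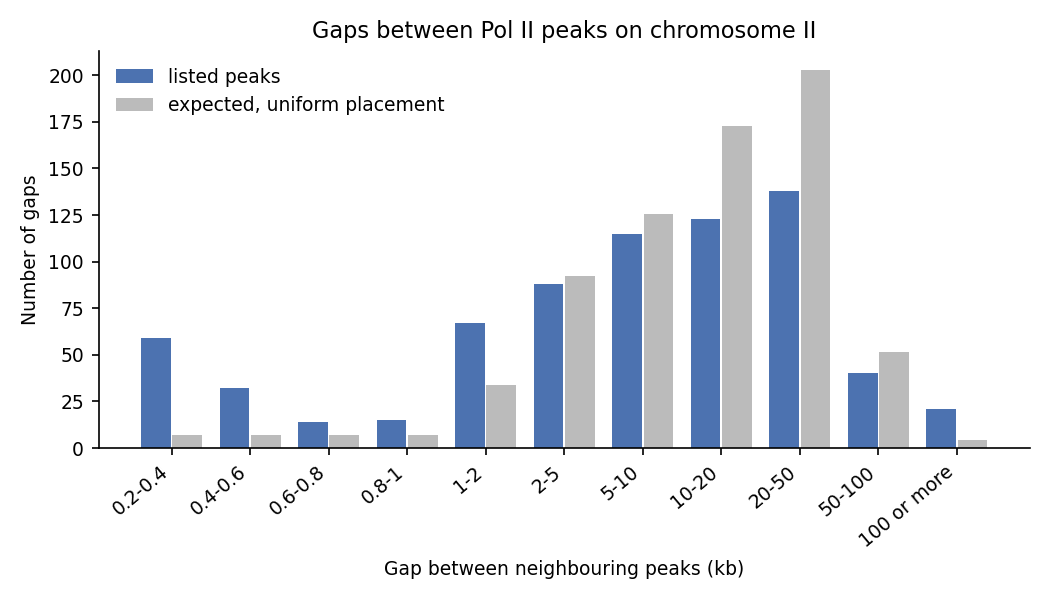
Number of gaps between neighbouring peaks of chromosome II by gap length in kb (blue), beside the number that a formula gives for uniform placement over the whole chromosome (grey). Gaps under 0.4 kb (59 against 7.24) and of 100 kb or more (21 against 4.25) exceed it, and gaps of 20 to 50 kb (138 against 203) fall short of it.

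Runs of close peaks were mostly pairs. When peaks with gaps of at most 1 kb were joined, 500 peaks stood alone, 75 runs had 2 peaks, 14 had 3, 2 had 4, 1 had 5 and 1 had 8. The run of 5 lay in the right arm, from 12357880 to 12376548, where peaks of up to 6116 bp covered 94.3% of 18669 bp. It had the largest span of the runs and lies in the window with most covered bases. Of the 2 runs of 4 peaks, the one with the larger span lay from 11202039 to 11210062 in the window with most peaks. Broad peaks were near another peak about as often as other peaks, 18 of 57 (31.6%) against 195 of 656 (29.7%).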

How the data were processed

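ChIP-seq peaks of 2 Pol II libraries against 2 input libraries were analysed from a single list whose name says that it combines them. Peaks were called with PeakSeq on WormBase WS180, per the file headers and source field. How reads were aligned, filtered and pooled is not given in the sources used here. For each peak the authors deposited its first and last base, counted from 1, and a q-value. The q-values in both fields that hold them were equal for all 5942 peaks, and the largest was 0.0099. Width, midpoint, gaps, −log10 q, window sums and region totals were computed from these with pandas 2.3.3 and numpy 2.4.6 in Python 3.11.15. Binomial intervals came from scipy 1.17.1, and matplotlib 3.10.9 drew the figures. Peaks were counted by midpoint, and windows were assigned by theirs. Expected shares under uniform placement are closed-form values. The formula was checked on simulated placements over the whole of chromosome II, with limits of 1 kb and 5 kb. The values with window density kept and the expected gap counts were not checked in this way. No test between regions was made, because the list has no replicates.

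Named peaks were the 10 with the smallest q, the 5 widest, the strongest of each region, those beside the longest stretches, the first and the last. Windows were named as those with most and fewest peaks, and runs as the 3 longest by number of peaks. The window with most covered bases, the groups of left arm peaks, the runs near the right tip and the stretches described as such were chosen after their values were seen. Members, regions and alternatives were chosen with earlier results of these data known. Intervals cover counting error only and treat peaks as independent, which neighbouring peaks are not.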

Additional observations from a re-analysis of the deposited data

How the results depend on the processing

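Of 68 recomputed values, 41 kept their direction and stayed within the 95% binomial interval of the reported value (counts within 1.5 times). Another 25 moved beyond it and 2 changed direction. Of the 68, 9 were added after the data were seen. The 2 changes of direction were the density of II over the mean of the other chromosomes without V (0.92) and without X (0.95). The interval of the reported ratio, 0.943 to 1.11, includes 1, and the value without X (0.946) lay inside it. Without III the ratio was 1.20. The share of peaks in the centre was 59.6% with a centre of 40% and 78.0% with one of 60%, by construction. The ratio of centre to arms in peaks was 2.21 with 1 Mb windows, and that in covered bases was 2.07 after peaks within 5 kb had been merged. Left over right arm was 0.14 for peaks with q of 1e-20 or less. The share of peaks with a close neighbour was 21.3% and 9.87% for q of at most 1e-05 and 1e-20, where fewer peaks are left, and 19.4%, 44.9% and 60.6% with limits of 500 bp, 2 kb and 5 kb. Its ratio to uniform placement was 4.54 and 6.02 for the same q limits, 6.42, 2.67 and 1.56 for the same distances, 3.11 with no minimum gap and 2.70 with window density kept. The median width was 1160 and 2949 bp for the q limits, and 869 and 1723 bp after merging within 1 kb and 5 kb. There were 18 peak-free stretches of 50 kb or more in the left arm and 6 of 200 kb or more. The median width of left arm over centre was 3.34 for q of at most 1e-05. Beyond changes that a setting makes by construction, the cause was not tested. No paired analysis was possible because all 4 libraries enter 1 list without columns of their own. Leaving out a replicate needs such columns too. Depth is unknown, so regions below the q limit cannot be judged.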

Other observations

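Very narrow peaks did not always have weak q-values. On chromosome II, 3 peaks were 1 bp wide. In the left arm, a peak of 3 bp, from 3537651 to 3537653, had a q of 1.83e-07, almost the same as that of the peak of 15855 bp at 2844413 to 2860267 (q = 1.88e-07).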
